A study of Sus scrofa with 8 samples.

Results

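The Toll-like receptors TLR1 to TLR8, the co-receptor CD14 and the adaptor MYD88 were followed in pig liver before and after a diet that leads to steatosis. They were taken by gene symbol from the deposited expression table, which held 10 of the 10 among 18103 genes and transcripts. Hepatic RNA came from male Landrace x Large White pigs. The initial state (labelled control and healthy) was sampled by biopsy at 4 months of age. Steatosis was sampled after euthanasia at 6 months, following 2 months on a diet rich in saturated fat, fructose, cholesterol and cholate and poor in methionine and choline. The same animals were used in both states according to the methods of the study. Each state was measured in 4 pools, and each pool held RNA of 2 pigs, so the pool was the replicate. Diet, age and way of sampling changed together and cannot be told apart.

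Toll-like receptors recognise molecules that microbes or damaged cells release. TLR2 (with TLR1 or TLR6 as partner), TLR4 and TLR5 sit at the cell surface and bind lipoproteins, lipopolysaccharide and flagellin. TLR3, TLR7 and TLR8 sit in endosomes and bind RNA. CD14 hands lipopolysaccharide to TLR4 and its partner LY96 (MD-2). MYD88 carries the signal of every member of the family except TLR3, which signals through TICAM1. In liver, Kupffer cells, the resident macrophages, express many of these genes and meet bacterial products that arrive with portal blood. Hepatocytes, stellate cells and endothelium express some of them too.

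Expression was given as FPKM, fragments per length of transcript and per mapped fragments of the library, a unit that allows levels of different genes to be compared. The step between low values placed the depth of the 8 libraries between about 15600000 and 17000000 fragments. Albumin (ALB) and the other hepatocyte markers were abundant in every pool, with a summed level of 51548 to 88547 FPKM. Pool 1 of the initial state stood apart, since 6 skeletal muscle markers summed to 2579 FPKM and 5 stomach markers to 1490 FPKM there. The actin of skeletal muscle, ACTA1, was at 1439 FPKM in that pool, at 0.49 to 10.51 FPKM in the other initial pools and at 0 to 0.04 FPKM in the steatosis pools. Results are therefore also given without this pool.

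A gene was called higher or lower where limma, fitted to log2(FPKM + 0.1) of 13175 genes, gave an adjusted p under 0.01 together with a log2 fold change above 1 or below -1. All 10 genes passed the filter on low values. TLR2, TLR4 and TLR8 were called higher in steatosis, 3 of 10 against 6.01% of all genes tested. MYD88, TLR3 and TLR7 were higher at an adjusted p under 0.05 but stayed below 2-fold, which made 6 of 10 under this looser rule against 26.7% of all genes. The same 6 genes had no overlap between the pools of both states, against 29.6% of all genes, and none had steatosis pools wholly below the initial pools (2.53% of all genes). None of the 10 was called lower, where the background was 0.334%, and 0 were lower at an unadjusted p under 0.05 in limma. The share of all genes at an unadjusted p was not computed. The median log2 fold change was 0.82 over the 10 genes and 0.25 over all genes tested. Relative to that median, TLR8 was at 1.06, TLR2 at 0.84, TLR4 at 0.77, MYD88 at 0.64, TLR3 at 0.63 and TLR7 at 0.51, TLR5 and TLR6 were at 0.02 and 0.00, and TLR1 and CD14 were at -0.37 and -0.44.

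The calls of TLR2 and TLR4 lay close to the fold limit. Without pool 1 of the initial state 1 of 10 was called (TLR8), and 788 of 13066 genes tested were called higher. TLR2 was then at 0.98 (adjusted p = 0.000524, limma) and TLR4 at 0.95 (adjusted p = 0.00122, limma) on the log2 scale, below the fold limit. Under the looser rule the same 6 genes passed without that pool, where 3099 of 13066 genes were higher. When the libraries were scaled to a common median ratio, which moved the median of all genes to -0.02, TLR8 alone was called. Of 13105 genes tested 399 were called higher with this scaling. MYD88, TLR2, TLR4 and TLR8 then passed the looser rule as higher and CD14 as lower. Under that rule and scaling 1471 of 13105 genes tested were higher and 1330 lower. The 1 of 10 lower was thus near the share of all genes.

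**Figure D1:**
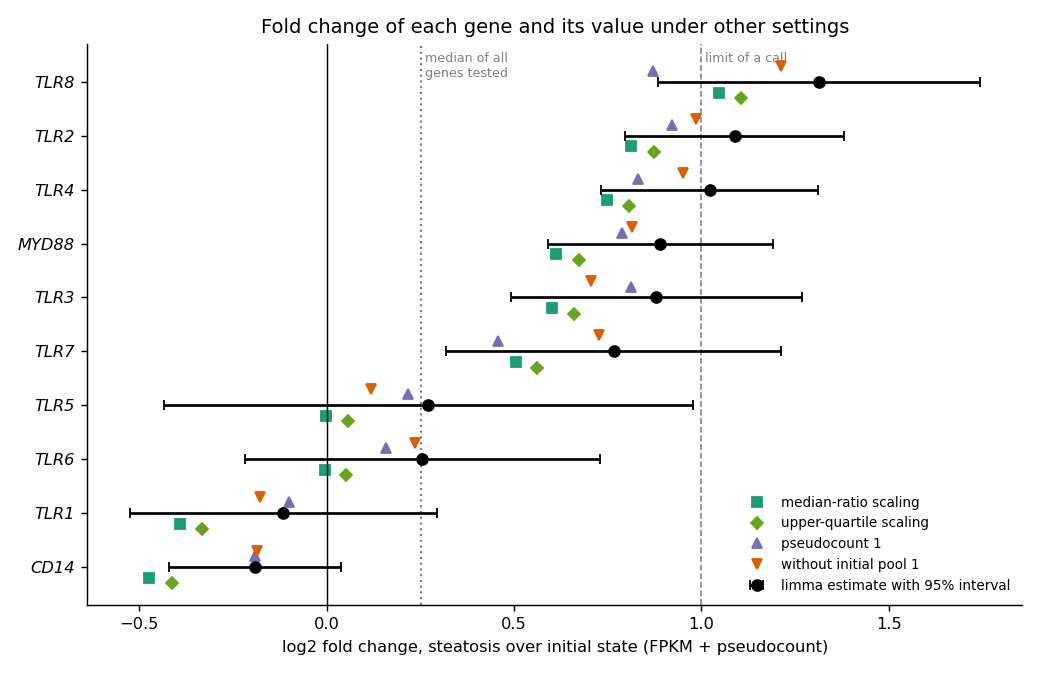
Log2 fold change of each gene, steatosis over initial state, on FPKM plus a pseudocount. Black points and bars are the limma estimate with its 95% interval over 4 against 4 pools, coloured symbols are the estimates under 4 other settings, and the dotted and dashed lines mark the median of all genes (0.25) and the fold limit (1). TLR8, TLR2 and TLR4 lie right of the dashed line, MYD88, TLR3 and TLR7 between both lines, and the intervals of TLR5, TLR6, TLR1 and CD14 hold 0.

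TLR2 and TLR4, the surface receptors for lipoproteins and lipopolysaccharide, changed by nearly the same amount. TLR2 (gene 396623, chromosome 8, 75416257 to 75428370, Sscrofa11.1) was at 2.73, 3.92, 3.47 and 3.67 FPKM in initial pools 1 to 4 and at 6.97, 8.19, 7.21 and 7.22 FPKM in steatosis pools 1 to 4. The highest initial pool was thus well below the lowest steatosis pool. The mean went from 3.45 ± 0.513 to 7.40 ± 0.541 FPKM (SD, n = 4 pools). On the log2 scale the change was 1.09 (SE 0.13, adjusted p = 0.000422, limma), or 0.84 above the median of all genes.

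TLR4 (gene 399541, chromosome 1, 258044610 to 258054641) was at 2.34, 3.17, 2.44 and 3.08 FPKM in the initial pools and at 5.48, 6.01, 5.43 and 5.71 FPKM in the steatosis pools. Its steatosis pools were the tightest of the 10 genes in relative terms, with a mean of 5.66 ± 0.265 FPKM (SD, n = 4) after 2.76 ± 0.428 FPKM. On the log2 scale the change was 1.02 (SE 0.13, adjusted p = 0.000553, limma). Because TLR2 and TLR4 moved together, their ratio was 1.25 ± 0.116 before and 1.31 ± 0.0468 after the diet, and the pools overlapped.

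CD14 (gene 100037938, chromosome 2, 142348036 to 142349686) was by far the most abundant of the 10 genes and did not follow TLR4. Its initial pools were at 205.94, 192.10, 225.92 and 190.13 FPKM, and its steatosis pools at 175.79, 153.39, 193.08 and 191.81 FPKM, so that both groups overlapped. The mean of 203.5 ± 16.5 FPKM in the initial state stood against 178.5 ± 18.5 FPKM in steatosis (SD, n = 4). The log2 fold change of -0.19 (SE 0.10, adjusted p = 0.186, limma) had a 95% interval from -0.42 to 0.04, or a ratio between 0.747 and 1.03. After median-ratio scaling the value was -0.47 with an adjusted p of 0.0198. The ratio of TLR4 to CD14 went from 0.0137 ± 0.00305 to 0.0321 ± 0.00491 (SD, n = 4) with no overlap of the pools.

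TLR1 and TLR6, which pair with TLR2, were measured at different levels and neither passed the test. TLR1 (gene 396607, chromosome 8, 30147600 to 30155454) was at 4.66, 4.66, 7.77 and 4.69 FPKM in the initial pools and at 4.46, 4.59, 5.98 and 4.67 FPKM in the steatosis pools. Pool 3 was the highest in both states, and the other pools lay between 4.46 and 4.69 FPKM in both. The log2 fold change was -0.12 (SE 0.18, adjusted p = 0.663, limma; 95% interval -0.52 to 0.29), and 0.07 without pool 3 of the initial state. Compared by pool number, 0 of 4 pools were higher in steatosis, and the interval in the fit blocked by pool number was -0.40 to 0.17.

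TLR6 (gene 396621, chromosome 8, 30159744 to 30180650) was at 1.09, 1.31, 1.31 and 0.90 FPKM before and at 0.96, 1.61, 1.79 and 1.30 FPKM after the diet. It was higher in steatosis in pools 2, 3 and 4 and lower in pool 1. The log2 fold change was 0.25 (SE 0.21, adjusted p = 0.388, limma; 95% interval -0.22 to 0.73), close to the median of all genes. Because TLR1 and TLR6 are close paralogs with 4.29 kb between them, fragments shared by both genes may be divided between them with error. TLR2 was at 0.664 ± 0.181 of the level of TLR1 in the initial state and at 1.52 ± 0.239 of it in steatosis (SD, n = 4), with no overlap of the pools. Against TLR6, TLR2 was at 3.06 ± 0.711 times the level before and 5.48 ± 1.35 times after the diet, and there the pools overlapped. The ratio of TLR1 to TLR6 was 4.74 ± 1.04 before and 3.61 ± 0.758 after, also with overlap.

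TLR5 (gene 100144476, chromosome 10, 19387666 to 19410024), the receptor for flagellin, differed more between pools than between states. It was at 2.82, 5.82, 5.72 and 2.48 FPKM in the initial pools and at 3.27, 6.20, 6.04 and 4.13 FPKM in the steatosis pools. Pools 2 and 3 were high and pools 1 and 4 low in both states. The log2 fold change of 0.27 (SE 0.32, adjusted p = 0.542, limma) had a 95% interval from -0.43 to 0.98. TLR5 was higher in steatosis in 4 of 4 pools compared by number, and in the fit blocked by pool number the SE was 0.15, the interval -0.07 to 0.62 and the adjusted p 0.199.

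**Figure D2:**
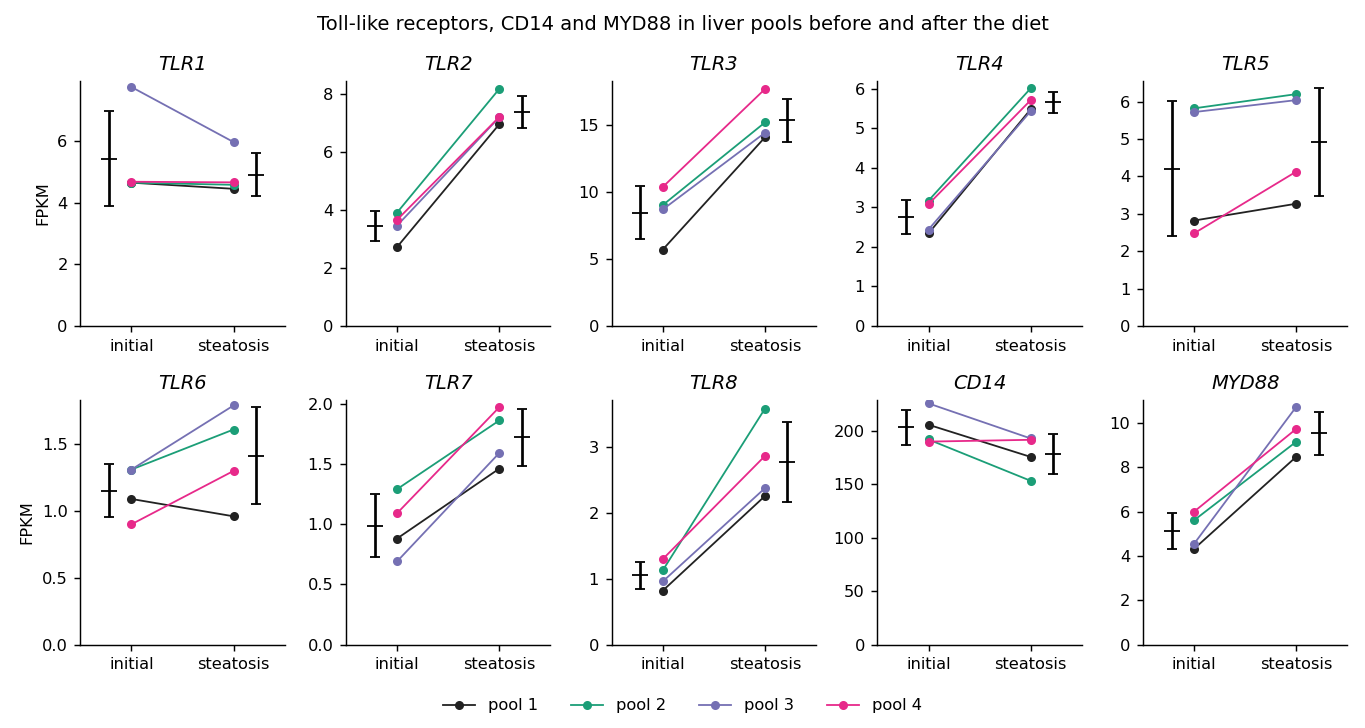
FPKM of each gene in the 4 initial and 4 steatosis pools. Coloured points are pools, lines join pools of the same number, bars are the mean and SD of 4 pools, and each panel has its own axis from 0. All lines of TLR2, TLR3, TLR4, TLR7, TLR8 and MYD88 go up with no overlap of the groups, and TLR1 and TLR5 keep the order of their high pools.

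Among the endosomal receptors for RNA, TLR8 had the largest fold change of the 10 genes. TLR8 (gene 397384, chromosome X, 9551284 to 9616762) was at 0.82, 1.13, 0.96 and 1.30 FPKM in the initial pools and at 2.26, 3.59, 2.38 and 2.87 FPKM in the steatosis pools. The lowest steatosis pool was well above the highest initial pool. The mean went from 1.05 ± 0.208 to 2.78 ± 0.604 FPKM (SD, n = 4). On the log2 scale the change was 1.31 (SE 0.19, adjusted p = 0.00113, limma), and 1.21 (adjusted p = 0.0025) without pool 1 of the initial state.

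TLR7 (gene 100037296, chromosome X, 9573178 to 9576987) was at 0.88, 1.29, 0.69 and 1.09 FPKM in the initial pools and at 1.46, 1.86, 1.59 and 1.97 FPKM in the steatosis pools. The groups did not overlap, but the gap between them was narrow. The log2 fold change was 0.77 (SE 0.20, adjusted p = 0.0188, limma), and 0.50 with an adjusted p of 0.104 after median-ratio scaling. The looser rule was also missed with upper-quartile scaling (adjusted p = 0.0706), without steatosis pool 2 (0.0557) or 4 (0.0608), and without pool 1 of both states (0.0511). TLR7 also had the fewest fragments, about 41 in its lowest library, where counting alone gives a relative error of 15.5%. The annotated span of TLR7 lies inside that of TLR8, and fragments of one may have been counted for the other. The ratio of TLR8 to TLR7 was 1.10 ± 0.239 before and 1.61 ± 0.218 after the diet (SD, n = 4), and its pools did not overlap.

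TLR3 (gene 100037937, chromosome 15, 46966262 to 46977774), the receptor for double-stranded RNA, was the most abundant receptor in both states. It was at 5.70, 9.02, 8.69 and 10.37 FPKM in the initial pools and at 14.07, 15.18, 14.41 and 17.67 FPKM in the steatosis pools. Initial pool 1 was the lowest, and every steatosis pool was above every initial pool. The mean went from 8.45 ± 1.97 to 15.3 ± 1.63 FPKM (SD, n = 4). On the log2 scale the change was 0.88 (SE 0.17, adjusted p = 0.00521, limma). Without initial pool 1 the value was 0.70 (adjusted p = 0.00318), and after median-ratio scaling it was 0.60 (adjusted p = 0.0555).

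MYD88 (gene 396646, chromosome 13, 22976951 to 22979568), the shared adaptor, was at 4.33, 5.62, 4.56 and 6.01 FPKM in the initial pools and at 8.49, 9.17, 10.75 and 9.75 FPKM in the steatosis pools. The groups did not overlap. The mean went from 5.13 ± 0.812 to 9.54 ± 0.957 FPKM (SD, n = 4). On the log2 scale the change was 0.89 (SE 0.13, adjusted p = 0.00134, limma). MYD88 thus passed the limit on the adjusted p and missed the limit on the fold, and it stayed near TLR4, at 1.86 ± 0.0732 times its level before and 1.69 ± 0.209 times after the diet. When mean FPKM was compared by exact permutation (two-sided), the 6 genes without overlap had p = 0.0286, the smallest that 4 against 4 pools can give. That value follows from the lack of overlap and adds nothing to it. The permutation took no account of the pool number. The same exact permutation test gave p = 0.143 for CD14, 0.286 for TLR6 and 0.514 for both TLR1 and TLR5.

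The order of the levels changed with these differences. In the initial state it ran CD14, TLR3, TLR1, MYD88, TLR5, TLR2, TLR4, TLR6, TLR8, TLR7. Among neighbours only CD14 and TLR3 and then TLR4 and TLR6 had ranges over the pools that did not overlap. In steatosis it ran CD14, TLR3, MYD88, TLR2, TLR4, TLR1, TLR5, TLR8, TLR7, TLR6. There the pools of TLR4 and TLR1, of TLR1 and TLR5, of TLR5 and TLR8 and of TLR7 and TLR6 overlapped, and the other neighbours did not. The summed level of the 8 receptors was 21.04 to 31.05 FPKM in the initial pools and 38.93 to 47.23 FPKM in the steatosis pools.

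The 10 genes differed in how much they varied with the state and with the pool. The difference between states held 93.1% of the sum of squares of log2(FPKM + 0.1) for both TLR2 and TLR4, 88.2% for TLR8 and for MYD88, 76.7% for TLR3 and 71.0% for TLR7. By contrast, the pool number held 86.5% for TLR1 and 85.4% for TLR5, a larger share than in 97.9% and 97.6% of all genes tested. It held 63.1% for TLR6 and 43.4% for CD14, where the median gene had 28.2%. For CD14 the state held 39.8%, where the median gene had 37.6%. The pool number sorts the libraries into more groups than the state does, and takes a larger share by that alone. The shares of the state and of the pool number are therefore not directly comparable within a gene. Libraries of the same pool number deviated together over all genes, and whether the pool number stands for the animals or for their handling was not tested.

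**Figure D3:**
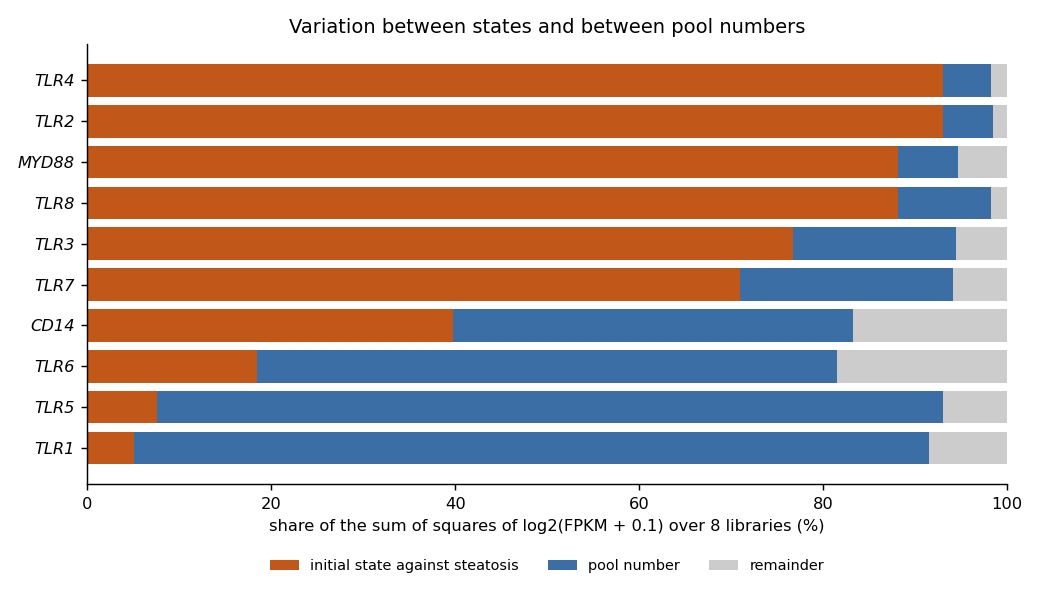
Share of the sum of squares of log2(FPKM + 0.1) over 8 libraries, in percent, that belongs to the state, the pool number and the remainder. TLR2 and TLR4 have 93.1% with the state, and TLR1 and TLR5 have 86.5% and 85.4% with the pool number.

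Other genes of the pathway were described from a list of 84 genes ordered by role, of which 82 were in the table and 76 passed the filter. In limma 12 of the 76 were called higher (15.8%, against 6.01% of all genes tested) and 0 lower (0.334% of all genes). At an unadjusted p under 0.05 in limma 5 were lower, a limit for which no share of all genes was computed. Under the looser rule 39 (51.3%) were higher and 3 lower, where the background was 26.7% and 2.28%. The median log2 fold change of the list was 0.53. Without pool 1 of the initial state 11 of 74 tested were called higher, where 788 of 13066 genes were. With the pool number as a block 13 were called, CCL4 being lost (adjusted p = 0.0206) and CXCL10 (adjusted p = 0.0081) and CCL2 gained.

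Of the remaining receptors, TLR9, which binds unmethylated CpG DNA, was at 0.29, 0.39, 0.38 and 0.33 FPKM in the initial pools and at 0.85, 1.41, 1.66 and 1.77 FPKM in the steatosis pools. At this low level the change was 1.73 on the log2 scale (SE 0.24, adjusted p = 0.000786, limma), above that of any of the 10 genes. TLR10, which lies 12.74 kb from TLR1, was at 0.12 to 0.32 FPKM and was not tested. Among 6 proteins that handle ligands, 3 were called higher, against 6.01% of all genes. LY96, the partner of TLR4, went from 7.61 to 18.3 FPKM, by 1.25 on the log2 scale (SE 0.13, adjusted p = 0.00016, limma). CD180, a receptor related to TLR4, went from 1.84 to 4.40 FPKM (1.22, adjusted p = 0.00104).

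CD36, a scavenger receptor that also takes up fatty acids, changed by 2.87 on the log2 scale (SE 0.59, adjusted p = 0.00651), and by 3.58 (adjusted p = 3.35e-05) without initial pool 1. When any other library was left out the call was lost (adjusted p of 0.0139 to 0.0219), with changes of 2.57 to 3.03. CD36 was at 6.43 FPKM in initial pool 1, where the other initial pools were at 0.69 to 0.89, and at 7.81 to 15.71 FPKM in steatosis. LBP, the plasma protein that brings lipopolysaccharide to CD14, was at 133.7 and 147.1 FPKM and did not pass (adjusted p = 0.595). Thus, within the lipopolysaccharide receptor, TLR4 and LY96 were called higher, while CD14 and LBP were not called.

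Of 7 adaptors, SARM1 (1.92 to 4.40 FPKM, log2 fold change 1.16, adjusted p = 0.000716) and BTK, a tyrosine kinase of myeloid and B cells (2.26 to 5.83 FPKM, 1.33, adjusted p = 0.000334), were called higher. Of the 7, 2 called and 5 higher under the looser rule stood against 6.01% and 26.7% of all genes. Among the 5 was TICAM1, the adaptor of TLR3 (11.03 to 16.0 FPKM, 0.55, adjusted p = 0.0157). Among 17 kinases and ubiquitin ligases 2 were called and 9 were higher under the looser rule, against 6.01% and 26.7% of all genes. The 2 called were IRAK2 (0.803 to 2.31 FPKM, 1.44, adjusted p = 0.000389) and IKBKE, which activates interferon regulatory factors (0.468 to 1.45 FPKM, 1.47, adjusted p = 0.000658). The most abundant adaptor and kinase or ligase genes not called were PIK3AP1 (15.1 to 25.01 FPKM, 0.74, adjusted p = 0.00261) and TAB2 (10.9 to 15.3 FPKM, 0.49, adjusted p = 0.0136). IRAK4, which binds MYD88 first, was at 4.92 and 6.69 FPKM (0.45, adjusted p = 0.0364).

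Of 11 transcription factors 0 were called and 7 were higher under the looser rule, against 6.01% and 26.7% of all genes. The 7 included NFKB1 (0.51, adjusted p = 0.0049) and IRF8 (0.86, adjusted p = 0.000923). RELA had a log2 fold change of 0.17 (adjusted p = 0.362), and JUN, the most abundant, was at 49.0 and 69.4 FPKM (0.75, adjusted p = 0.274, and 1.25 with 0.0214 without initial pool 1). Among 12 inhibitors 0 were called, and 2 (NFKBIA and TNIP1) were higher under the looser rule, a smaller share than the 26.7% of all genes. Under the same rule 1 was lower, where all genes had 2.28%. This one, SOCS1, went from 12.9 to 7.51 FPKM (-0.74, adjusted p = 0.0143). TOLLIP was the most abundant, at 60.9 and 67.1 FPKM (0.14, adjusted p = 0.258). The other 2 genes lower under this rule were CHUK (-0.51), a kinase of the NF-kappa B pathway, and LRRC59 (-0.39), which helps to move receptors to endosomes. HSP90B1, a chaperone that folds Toll-like receptors, was at 333.8 and 259.9 FPKM (-0.34, adjusted p = 0.0701, and -0.46 with 0.0126 without initial pool 1).

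Of 17 induced genes tested 4 were called higher and 9 passed the looser rule as higher, against 6.01% and 26.7% of all genes. The 4 were the adhesion molecules VCAM1 (7.07 to 19.5 FPKM, log2 fold change 1.46) and ICAM1 (4.96 to 10.6 FPKM, 1.07), the co-stimulatory CD86 (3.01 to 9.23 FPKM, 1.61) and the chemokine CCL4 (6.21 to 12.3 FPKM, 1.01). CCL4 had an adjusted p of 0.00974 and was lost when any library except initial pool 1 was left out. CXCL10, the most abundant of these genes, went from 80.3 to 202.3 FPKM (1.56, adjusted p = 0.0456, and 1.13 with 0.0814 without initial pool 1). The inflammatory cytokines were low. IL1A, IL1B, IL6, IL12A and IL12B had means of at most 0.258 FPKM and were not tested, and TNF was at 0.768 and 1.25 FPKM (0.73, adjusted p = 0.0955).

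**Figure D4:**
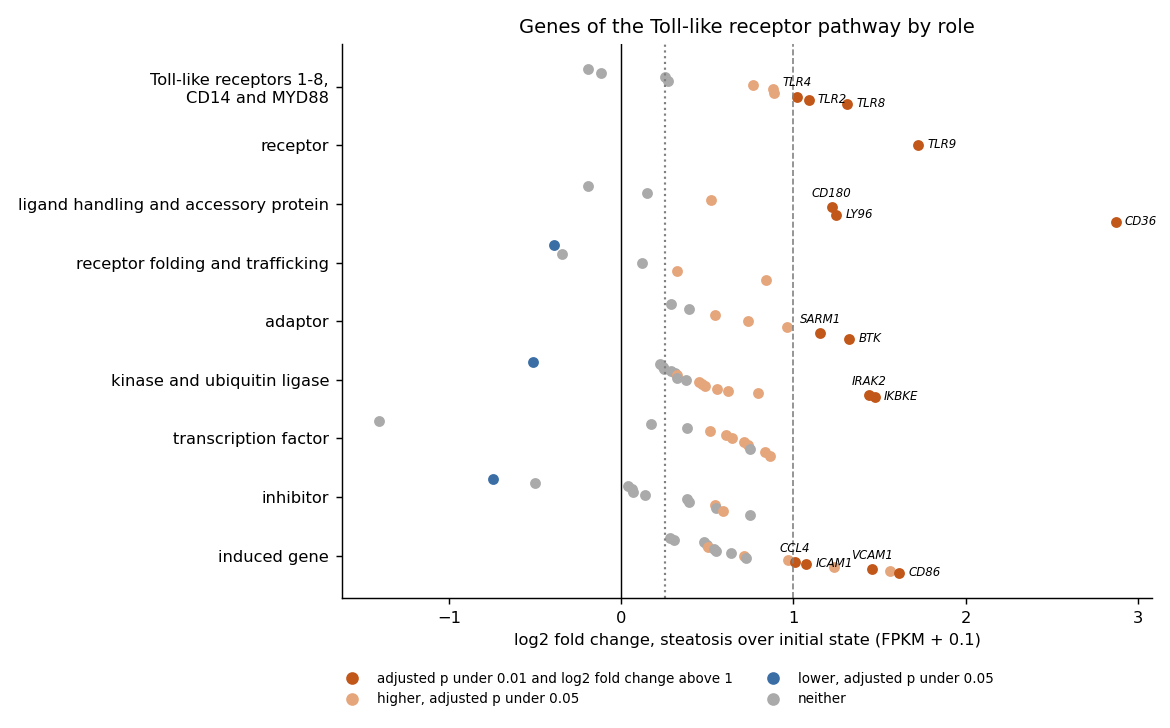
Log2 fold change (FPKM + 0.1), steatosis over initial state, of the 10 genes (top row) and of 76 other genes of the pathway, 1 point a gene, by role. Dark orange points were called higher, light orange and blue points passed an adjusted p of 0.05 as higher and lower, and the dotted line marks the median of all genes. All dark orange points lie right of 1, and no gene was called lower.

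Markers of several cell types differed beside these genes. In bulk RNA, more cells of a type and more RNA per cell cannot be told apart. Of 14 macrophage markers, none at 0 in any pool, 3 were called higher (CD68, MARCO and TYROBP), 9 were higher under the looser rule and 0 were called lower, where all genes tested had 6.01%, 26.7% and 0.334%. Their summed level was 950 to 1314 FPKM in the initial pools and 1467 to 1664 FPKM in the steatosis pools. The members of this list did not change alike, since TYROBP went from 42.8 to 116 FPKM, C1QA was at 200.1 and 208 FPKM (adjusted p = 0.73) and CD5L was at 190.1 and 148.1 FPKM (adjusted p = 0.0709).

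The summed level of 8 T and NK cell markers was 33.2 to 58.8 FPKM before and 67.9 to 74.5 FPKM after the diet, with NKG7 called higher among them (13.5 to 34.6 FPKM). Without NKG7 the other 7 summed to 22.1 to 43.7 and 33.6 to 39.7 FPKM, which overlap, and 0 of these 7 passed the looser rule. The sum of 8 endothelial markers was 144 to 180 and 196 to 210.3 FPKM. Of these 8, 0 were called and 2 were higher under the looser rule, near the 26.7% of all genes. For 8 neutrophil markers it was 5.84 to 12.3 and 9.27 to 14.8 FPKM, which overlap. Of the 5 tested, CSF3R was called higher and no other passed the looser rule. Their log2 fold changes ran from -0.66 (S100A9) to 1.49 (CSF3R), with a median of 0.06. For 8 dendritic cell markers it was 13.2 to 17.1 and 17.9 to 21.3 FPKM, but 0 of the 7 tested passed either rule, and without SIGLEC1 the sums overlapped (6.06 to 9.18 and 7.91 to 9.20 FPKM). The 5 B cell markers measured went the other way, from 3.33 to 8.68 FPKM to 1.91 to 2.76 FPKM, and MS4A1 was called lower (-1.23, adjusted p = 0.00937). Of 7 stellate cell markers 1 was called higher (LRAT, 1.25, adjusted p = 0.000773) and 4 passed the looser rule (LRAT, PDGFRB, RELN and RGS5), with a median log2 fold change of 0.83, near that of the 10 genes (0.82). Their sums (49.1 to 124 and 95.2 to 253 FPKM), which the collagens dominate, overlapped, as did those of 4 cholangiocyte markers (4.06 to 19.9 and 7.57 to 18.6 FPKM). For each of these lists, all genes tested had 6.01% called higher, 0.334% called lower and 26.7% higher under the looser rule. The part of these cell types in the differences of the receptors was not tested.

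When the mean log2 level of the 14 macrophage markers was subtracted in each pool, the 10 genes fell into 3 groups. These markers were 0.85 higher in steatosis on the log2 scale (mean of 5.08 and 5.93). Relative to them TLR8 was 0.46 and TLR2 0.24 higher in steatosis, with no overlap of the pools. TLR4 (0.17), MYD88 (0.04), TLR3 (0.03), TLR7 (-0.08), TLR5 (-0.58) and TLR6 (-0.60) overlapped between the states. CD14 (-1.04) and TLR1 (-0.97) were lower with no overlap. This is a description, because the value depends on which markers are in the list.

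**Figure D5:**
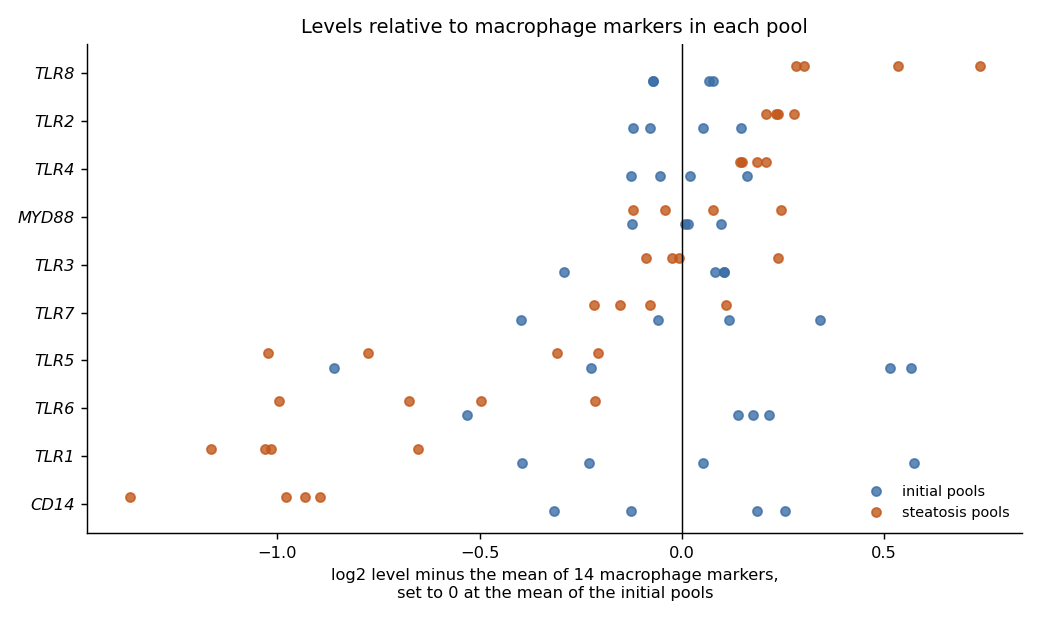
Level of each gene minus the mean of 14 macrophage markers in the same pool, on the log2(FPKM + 0.1) scale, set to 0 at the mean of the initial pools; each point is a pool. The steatosis pools of TLR8 and TLR2 lie right of all initial pools, those of CD14 and TLR1 lie left of them, and the other 6 genes overlap.

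The genes most alike in their pattern over the 8 libraries, by Pearson's r of log2(FPKM + 0.1), were found among the tested genes with an assigned symbol. Since the libraries form 2 states, a high r includes the difference between them. Each gene named here and below was picked for the highest r among all those compared, and its r is raised by that choice. For TLR2 they were ORAI2 (r = 0.99), a subunit of calcium channels, and TRIM14 (r = 0.99). TRIM14 was also among the closest to TLR4 (r = 0.99), next to SUMF1. For TLR8 they were CD300C, a receptor of myeloid cells, and MILR1 (r = 0.99). TLR3 was nearest to CASP1, the protease that matures interleukin 1 beta, and to the chemokine CCL8 (both r = 0.99). For MYD88 they were CLIC4 and AHR (both r = 0.99), and for TLR7 RAB32 (r = 0.99) and PLPP2 (r = 0.98).

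TLR1, TLR5, TLR6 and CD14 had other neighbours. TLR1 was nearest to SPIB (r = 0.91), a transcription factor of B cells and plasmacytoid dendritic cells, which also followed it most closely once the means of both states were removed (r = 0.97). TLR5 was nearest to THYN1 and NVL (both r = 0.97), TLR6 to NECTIN3 (r = 0.97) and DENND4C (r = 0.96), and CD14 to TM4SF20 (r = 0.93) and SREK1IP1 (r = 0.90). With the means of both states removed, the closest pair among the 10 genes was TLR5 with TLR6 (r = 0.88). TLR2 with TLR4 and TLR4 with TLR7 came next (both r = 0.84). TLR2 with TLR8 (0.80), TLR2 with TLR3 (0.79) and TLR4 with TLR8 (0.79) followed closely. All these values rest on 8 libraries that share pools, preparation and scaling.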

How the data were processed

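Hepatic RNA of 8 pools was enriched for poly-A RNA and sequenced in pairs of 100 bp on the DNBseq platform. According to the methods of the study, reads were filtered, mapped with HISAT2 2.0.4 to Sus scrofa 11.1, and quantified with Bowtie2 2.2.5 and RSEM 1.2.12. The FPKM values of 17778 known genes and 325 new transcripts were deposited by the authors with no stated scaling between libraries. Whether fragments were assigned by strand is not given in the sources used here. The authors also deposited 4 Poisson comparisons of single pools (fold changes and false discovery rates), which were not used. Coordinates are those of RefSeq for Sscrofa11.1.

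The 13175 genes that reached 0.3 FPKM in 4 or more of the 8 libraries were tested with limma 3.58.1 (R 4.3.3). The model held the state alone, was fitted to log2(FPKM + 0.1) and allowed the variance to follow the mean, and p values were adjusted by Benjamini-Hochberg over all genes. Fold changes on this scale understate those of low genes. Python 3.11.15 with numpy 2.4.6, pandas 2.3.3 and scipy 1.17.1 served for tables, with matplotlib 3.10.9 for plots. Fragments were approximated from the step between FPKM values below 0.2 in genes of 400 to 600 bp, which placed depth at 91.9% to 100.0% of the deepest library, and the resulting error covers counting only. On simulated data the fit recovered 179 of 200 changed genes (89.5%) and called 0 unchanged ones among 13071 genes fitted. The planted log2 changes all lay beyond the fold limit of 1, in genes with a mean above 1 FPKM and with no pool effect. Changes close to that limit, such as those of TLR2 and TLR4, were not simulated, so the recovery does not bear on them.

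The pool number was taken to pair the libraries, which the study does not state: deviations from the means of the states correlated at 0.16, 0.35, 0.32 and 0.25 between pools of the same number, all above 0.1. Members and lists were chosen with earlier results of these data known. Named were the 10 members, each pathway gene called and the highest gene not called per role, some of the 3 most abundant markers of a list, and the genes most alike. TICAM1, IRAK4, NFKB1, RELA, IRF8, NFKBIA, TNIP1, SOCS1, CHUK, LRRC59, TLR10, CCL2, the cytokines and markers other than the most abundant were named after their values were seen. Alternatives were 3 other scalings, other filters and limits, a pseudocount of 1, limma's treat test, the replicate block and leaving out each library. Chosen after seeing the data were leaving out pool 1 of both states, and the looser rule with median-ratio scaling or without initial pool 1. No sequences are shown.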

Additional observations from a re-analysis of the deposited data

Results flagged for a closer look

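In 58 groups of 4 pools examined, 3 had a pool far from the others by Dixon's test at 95%, where chance gives about 1 in 20, or 2.9. TLR1 was at 7.77 FPKM in pool 3 of the initial state, where the other 3 pools were at 4.66 to 4.69 FPKM. It was at 5.98 FPKM in pool 3 of steatosis, where the others were at 4.46 to 4.67 FPKM, so the high pool had the same number in both states. CD36 was at 6.43 FPKM in pool 1 of the initial state, the pool with skeletal muscle and stomach markers, and at 0.69 to 0.89 FPKM in the other 3 initial pools.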

How the results depend on the processing

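The count of 3 members called higher became 1 (TLR8) with median-ratio and with upper-quartile scaling, 6 at an adjusted p under 0.05 with no fold limit, also 6 so without pool 1 of the initial state, and 0 with a pseudocount of 1 (6 at an unadjusted p under 0.05) or limma's treat test (0 at an unadjusted p under 0.05). Leaving out 1 library gave 1 to 3, with TLR4 lost at 0.97 without initial pool 3 and at 0.99 without steatosis pool 2. The count called lower became 1 (CD14) under the looser rule with median-ratio scaling, where 1330 of 13105 genes tested were lower. Of the pathway list, the 12 higher became 6 with median-ratio scaling, 5 with a pseudocount of 1, 39 under the looser rule with all libraries and also 39 without initial pool 1, 0 with treat (8 at an unadjusted p under 0.05), and 9 to 12 without 1 library. The 0 lower became 1 (SOCS1) with median-ratio scaling, and under the looser rule 3, 5 with that scaling and 2 without initial pool 1. The 5 were of 75 tested with that scaling, a smaller share than that of all genes. The replicate block kept 3 members called and gave 13 pathway genes. Of all genes tested, 399 of 13105 were called higher with median-ratio scaling and 449 of 13124 with upper-quartile scaling. A pseudocount of 1 gave 395 of 13175, treat 68 and the block 785. With 1 library left out it was 573 to 788. Directions turned for TLR1 (0.065 without initial pool 3, within -0.21 to 0.065 over the libraries left out), for TLR5 (-0.0027) and TLR6 (-0.0049) with median-ratio scaling, for LBP (-0.13 with median-ratio, -0.072 with upper-quartile scaling, -0.0062 without initial pool 1, within -0.0062 to 0.28 over the libraries left out) and for TOLLIP (-0.14 and -0.080 with these scalings). Of the members' values under alternatives, 191 kept direction and side of the limit, 16 fell short of it, 8 passed it and 5 turned. Part of these could not turn, because other filters, limits, variance settings and the block left the estimate unchanged. The looser rule with median-ratio scaling or without initial pool 1 reused estimates already counted. The tally is therefore no measure of stability. The cause of the changes between settings was not tested beyond the fold limit: TLR2 and TLR4 lay within 0.1 of it.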
